A study of Mus musculus with 18 samples.

Results

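The B cell and immunoglobulin genes described here are 9 members, namely Ighm, Igkc, Jchain, Cd79a, Cd79b, Blnk, Ms4a1, Mzb1 and Ly9, chosen by gene symbol from the 55487 genes counted in mouse liver. The measurement was bulk RNA sequencing of whole liver from 18 male C57BL/6J mice, with 1 library per mouse and 6 mice per group. CON-GFP mice ate a purified control diet, whereas FPC-GFP and FPC-LIPA mice ate a diet rich in fructose, palmitate and cholesterol (FPC) with sugared drinking water, which the study used to promote nonalcoholic fatty liver disease. Every mouse, controls included, received adeno-associated virus of serotype 8 from which the hepatocyte promoter TBG drives either GFP or human LIPA, the gene of lysosomal acid lipase. The mice were bought at 7 weeks of age, the virus was given 1 week before the diet, and the liver was taken when the diet had run for 16 weeks, following 4 h without food. No CON-LIPA library was analysed here, so an effect of LIPA on the control diet could not be examined. The deposited values are raw read counts per gene.

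All members sat far below the hepatocyte genes in these libraries, which held from 16632146 to 37739301 counts. Alb and Apoa1 averaged 51310 and 7824 CPM (counts relative to library size, scaled by the TMM method) over the 18 libraries. Of the markers that define B cells, Pax5 averaged 0.351 CPM in CON-GFP, 0.385 in FPC-GFP and 0.827 in FPC-LIPA. The plasma cell receptor gene Tnfrsf17 had at most 3 counts in every library. Cytosolic ribosomal protein genes took 1.69% to 2.47% of the counts in CON-GFP, 1.39% to 1.75% in FPC-GFP and up to 2.86% in FPC-LIPA 31, 33 and 34. The libraries FPC-LIPA 36, 37 and 39 stood apart at 6.36%, 8.02% and 8.05%, and FPC-LIPA 37 also had the lowest total and a sample sheet number far from the rest. Its title alone carries the suffix b (37b), whose meaning the labels do not give. Since RNA of whole liver was measured, fewer B cells and less RNA per B cell cannot be told apart.

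B cells carry a membrane immunoglobulin, made of heavy chains such as IgM and IgD and of kappa or lambda light chains, which signals through the CD79A and CD79B proteins. The adaptor BLNK passes the signal on from the kinase SYK, and MS4A1 (CD20) is a surface protein of mature B cells that plasma cells lose. Plasma cells secrete antibody with the help of the chaperone MZB1, and the J chain joins IgM and IgA into polymers that hepatocytes and other epithelia of the mouse can move across the cell by way of the polymeric immunoglobulin receptor, PIGR. LY9 is a receptor of the SLAM family found on B and T cells.

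Positions are given on GRCm38. Ighm (ENSMUSG00000076617) is on chromosome 12, 113418558 to 113422730, Igkc (ENSMUSG00000076609) on chromosome 6, 70726435 to 70726966, and Jchain (ENSMUSG00000067149) on chromosome 5, 88519809 to 88527891. Cd79a (ENSMUSG00000003379) is on chromosome 7, 24897381 to 24902197, and Cd79b (ENSMUSG00000040592) is on chromosome 11, 106311341 to 106314762. Chromosome 19 holds both Ms4a1 (ENSMUSG00000024673), 11249675 to 11266241, and Blnk (ENSMUSG00000061132), 40928927 to 40994535. Ly9 (ENSMUSG00000004707) is on chromosome 1, 171588624 to 171607410. Mzb1 (ENSMUSG00000024353) shares 57.2% of its exon bases with the gene Gm50318 on the same strand, which had 0 counts in every library. No read was thus assigned to Gm50318, and whether reads on the shared bases were counted for Mzb1 or dropped is not known. The exons of the other members share no base with another annotated gene.

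A RefSeq promoter sequence was found for 3 of the 9 members. The 250 bases before the RefSeq start site are shown for them because Cd79a and Blnk belong to the B cell receptor and its signalling, while Jchain belongs to antibody secretion. Capitals mark the letters CAGGAAGT, a form of the ETS core, and in Blnk also the octamer ATGCAAAT read on the other strand, where it appears as ATTTGCAT. They lie at chr7:24897247-24897496 (plus strand), chr19:40994222-40994471 (minus strand) and chr5:88527898-88528147 (minus strand) of GRCm38.p6, and each is written 5′ to 3′ along its gene. The RefSeq start sites of Cd79a and Blnk differ from the GENCODE gene starts given above, so that the Cd79a window runs past the latter and the Blnk window lies inside the GENCODE gene.
Cd79a: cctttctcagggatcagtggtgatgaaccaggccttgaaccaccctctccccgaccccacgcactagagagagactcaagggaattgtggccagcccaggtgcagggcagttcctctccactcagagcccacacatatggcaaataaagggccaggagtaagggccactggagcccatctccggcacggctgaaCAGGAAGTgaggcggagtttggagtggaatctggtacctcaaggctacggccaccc
Blnk: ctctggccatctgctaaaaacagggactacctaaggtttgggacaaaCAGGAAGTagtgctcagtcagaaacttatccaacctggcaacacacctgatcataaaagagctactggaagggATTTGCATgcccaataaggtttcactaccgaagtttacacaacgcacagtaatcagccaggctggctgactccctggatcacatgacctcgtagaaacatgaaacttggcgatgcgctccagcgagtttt
Jchain: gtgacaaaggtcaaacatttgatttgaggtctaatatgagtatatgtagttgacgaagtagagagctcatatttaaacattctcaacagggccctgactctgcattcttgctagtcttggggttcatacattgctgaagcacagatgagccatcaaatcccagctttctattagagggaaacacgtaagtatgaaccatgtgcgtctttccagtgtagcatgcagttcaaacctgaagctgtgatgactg

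CAGGAAGT, chosen after the sequences were read, starts 56 bases before the RefSeq start site of Cd79a and 203 bases before that of Blnk, and the octamer of Blnk starts 130 bases before it. Both strands were searched for these letters and for a palindromic EBF motif, and no 2 matches overlapped. Of 32851 promoters of the same length, 2.69% held CAGGAAGT, 1.6% held the octamer and 0.779% held the EBF motif. None of the 3 motifs was matched in the Jchain window, and the EBF motif was in none of the 3 windows. Such matches are descriptions of letters and do not show a bound site.

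Compared per kilobase of exon, the constant genes of secreted and membrane immunoglobulin gave the highest levels of the members. Igkc averaged 15.5 CPM per kilobase in CON-GFP, 13.8 in FPC-GFP and 21.9 in FPC-LIPA. Ighm averaged 5.59, 4.38 and 5.68 CPM per kilobase in the same groups. Every other member was below 1 CPM per kilobase in CON-GFP, where Cd79b came next at 0.824 and Ms4a1 was lowest at 0.0593. In FPC-LIPA the constant genes were followed by Cd79b at 3.47 and Ly9 at 2.02 CPM per kilobase, while Mzb1 was lowest at 0.0880.

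With the FPC diet, Ly9 rose 2.18-fold and no other member was differentially expressed (DE), that is changed at least 2-fold with an adjusted p under 0.05 in edgeR's quasi-likelihood test. A gene that passed this adjusted p with a smaller fold change is not counted as DE. Of the 9 members, 7 passed the filter on low counts in FPC-GFP against CON-GFP, 4 of these were above 0 on the log2 scale (51.2% of all tested genes were), and 1 was DE, where 7.20% of the 14307 tested genes were DE and 4.76% rose. The groups of 0 members were free of overlap, which 6.19% of all genes were in the upward direction. The median log2 fold change of the 7 was 0.31, against 0.01 for all tested genes. Ms4a1 and Mzb1 had too few counts to be tested in that comparison.

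In FPC-LIPA against FPC-GFP, 4 members rose, namely Ms4a1 by 4.98-fold, Jchain by 3.42-fold, Cd79b by 3.20-fold and Ly9 by 2.30-fold. All 8 members that passed the filter were above 0 (52.3% of all genes were), with a median log2 fold change of 1.13 against 0.04 for all genes, and 4 of 8 were DE where 11.4% of 14620 genes were DE and 10.3% rose. The filter can pass a member through its FPC-LIPA libraries alone, so these counts cover the members tested and not the whole set. Cd79b was the only member whose groups did not overlap, which held for 3.81% of all tested genes in the upward direction. None of these 4 was DE when the fit was limited to libraries with sample sheet numbers from 55 to 68 (unadjusted p under 0.05 for 4 members with edgeR's quasi-likelihood test), where only 96 of 14736 genes were DE. Without FPC-LIPA 36, 37 and 39, again 0 members were DE in that test, and 116 genes were DE in all. There all 8 were above 0 with an unadjusted p under 0.05 and a median log2 fold change of 1.01. The share of all tested genes at that unadjusted p was not worked out, so these counts do not set the members apart.

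In FPC-LIPA against CON-GFP, where diet and vector differ together, Ms4a1, Ly9 and Cd79b rose. These 3 of 8 tested members were DE where 15.1% of 14433 genes were DE and 11.8% rose. All 8 were above 0, as were 52.4% of all genes, and the groups of Ly9 and Cd79b did not overlap (6.26% of genes in the upward direction). The 3 comparisons share libraries, since each group enters 2 of them, so their values for a gene are not independent of one another.

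**Figure D1:**
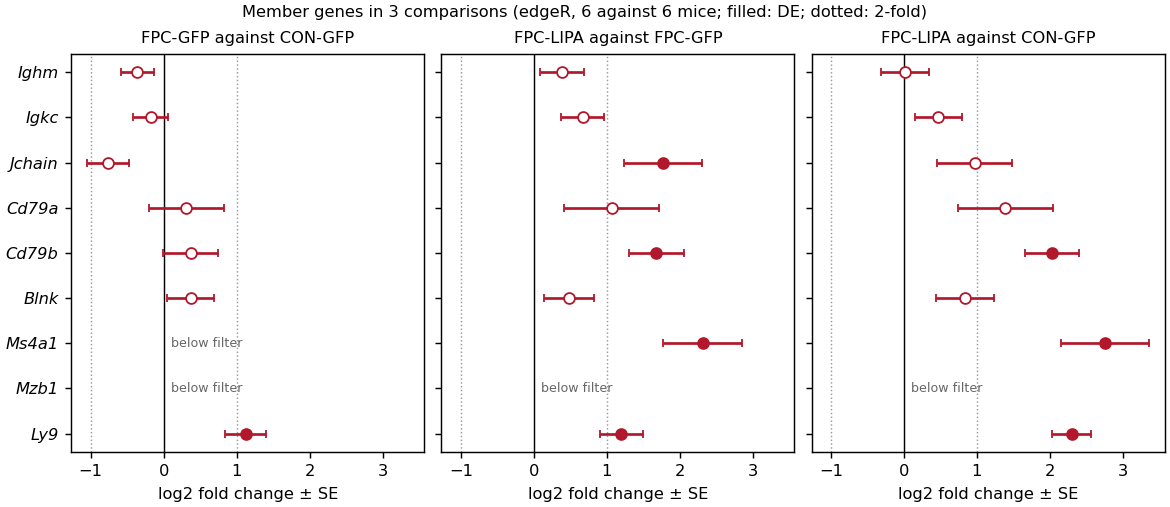
Log2 fold change (x axis) with its standard error for each member (y axis) in the 3 comparisons, each with 6 against 6 mice. Filled points are DE, dotted lines mark 2-fold, and Ms4a1, Jchain, Cd79b and Ly9 are filled in FPC-LIPA against FPC-GFP, whereas only Ly9 is filled for the diet alone.

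Among the immunoglobulin chains, Ighm did not pass the test in any comparison. Its level lay between 5.38 and 13.8 CPM in CON-GFP (median 11.2), between 6.25 and 11.7 in FPC-GFP (median 7.50) and between 5.56 and 22.3 in FPC-LIPA (median 9.50). The 3 ranges overlapped over most of their width, and the FPC-LIPA range was stretched by FPC-LIPA 33. Its log2 fold change was -0.36 (SE 0.23, adjusted p = 0.255) for the diet, 0.38 (SE 0.30, adjusted p = 0.356) for FPC-LIPA against FPC-GFP, and 0.01 (SE 0.33, adjusted p = 0.982) for FPC-LIPA against CON-GFP. Without FPC-LIPA 33 the value against FPC-GFP was 0.03.

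Igkc, the kappa constant gene, likewise did not pass the test. It lay between 3.91 and 12.2 CPM in CON-GFP (median 8.69), between 5.23 and 10.2 in FPC-GFP (median 7.08) and between 5.15 and 18.3 in FPC-LIPA (median 10.2). FPC-LIPA 33 and 36, at 18.1 and 18.3 CPM, were the highest of all 18 libraries, and FPC-LIPA 39 was below every FPC-GFP library. The log2 fold change was 0.67 (SE 0.29, adjusted p = 0.102) in FPC-LIPA against FPC-GFP. With each library's trend on gene length removed it was 0.08, and the exons of Igkc span only 532 bases. For the diet the log2 fold change was -0.18 (SE 0.24, adjusted p = 0.60), and for FPC-LIPA against CON-GFP it was 0.47 (SE 0.32, adjusted p = 0.293).

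Jchain showed the lowest levels in FPC-GFP and 1 very high value in FPC-LIPA. It lay between 0.856 and 2.24 CPM in CON-GFP (median 1.61), between 0.602 and 1.46 in FPC-GFP (median 0.825) and between 0.914 and 10.6 in FPC-LIPA (median 1.89). FPC-LIPA 37 alone gave the value of 10.6 CPM, from 134 counts, and the next highest library, FPC-LIPA 33, gave 2.64. Its log2 fold change was -0.76 (SE 0.28, adjusted p = 0.0630) for the diet, which did not pass the test. In FPC-LIPA against FPC-GFP it was 1.77 (SE 0.53, adjusted p = 0.0328), but without FPC-LIPA 37 it was 0.92 with an adjusted p of 0.0795. The call was also lost without FPC-GFP 12, 13, 16, 19 or 20 or FPC-LIPA 36, with log2 fold changes from 1.67 to 1.85 in those runs. Against CON-GFP the log2 fold change of Jchain was 0.97 (SE 0.52, adjusted p = 0.177).

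FPC-LIPA 37 stood apart in the balance of these genes as well as in the level of Jchain. It held the lowest Ighm level of its group, 5.56 CPM, and had 1.91 Jchain counts per Ighm count, whereas the other 17 libraries had from 0.0593 to 0.248. It also held 5 counts of Mzb1 and the highest level of Ptprc, the leukocyte common antigen gene CD45, at 76.5 CPM.

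Cd79b rose in FPC-LIPA in every library, whereas its partner Cd79a did not pass the test. Cd79b lay between 0.489 and 1.95 CPM in CON-GFP (median 1.10), between 0.530 and 2.44 in FPC-GFP (median 1.58) and between 2.98 and 9.95 in FPC-LIPA (median 4.29). The lowest FPC-LIPA library was thus above the highest library of both other groups. Its log2 fold change was 0.37 (SE 0.38, adjusted p = 0.488) for the diet, 1.68 (SE 0.38, adjusted p = 0.0153) in FPC-LIPA against FPC-GFP and 2.03 (SE 0.37, adjusted p = 0.00159) against CON-GFP. It stayed DE in both FPC-LIPA comparisons in all 12 runs that left out 1 library. Without the 3 libraries rich in ribosomal protein counts its log2 fold change was 1.48 (adjusted p = 0.0734) against FPC-GFP and 1.85 (adjusted p = 0.00332) against CON-GFP.

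Cd79a was spread widely inside each group, with few counts in many libraries. Its level lay between 0.193 and 1.53 CPM in CON-GFP (median 0.541), between 0.156 and 1.77 in FPC-GFP (median 1.06) and between 0.226 and 5.18 in FPC-LIPA (median 1.80). FPC-LIPA 31, 33 and 34, at 2.02, 5.18 and 3.28 CPM, were above every other library, while FPC-LIPA 37 and 39, with 4 and 5 counts, were among the lowest of all. The log2 fold change was 0.31 (SE 0.51, adjusted p = 0.679) for the diet, 1.07 (SE 0.65, adjusted p = 0.227) in FPC-LIPA against FPC-GFP and 1.39 (SE 0.65, adjusted p = 0.132) against CON-GFP. Without FPC-LIPA 36, 37 and 39 it was 1.77 (adjusted p = 0.105) and 2.08 (adjusted p = 0.0105), and in the latter Cd79a was DE.

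The number of Cd79b counts per Cd79a count differed most in the libraries rich in ribosomal protein counts. It ranged from 0.923 to 4.33 in CON-GFP and from 1.24 to 3.40 in FPC-GFP, and FPC-LIPA 31, 33 and 34 gave 1.70, 0.938 and 1.43. The ratios of 6.29, 12.25 and 13.2 in FPC-LIPA 36, 37 and 39 were above those of every other library. Ms4a1 counts per Cd79a count set the same libraries apart, at 4.33, 10.75 and 7.80, against 0.0962 to 2.00 in the other 15. The part of the ribosomal share in these ratios was not tested.

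**Figure D2:**
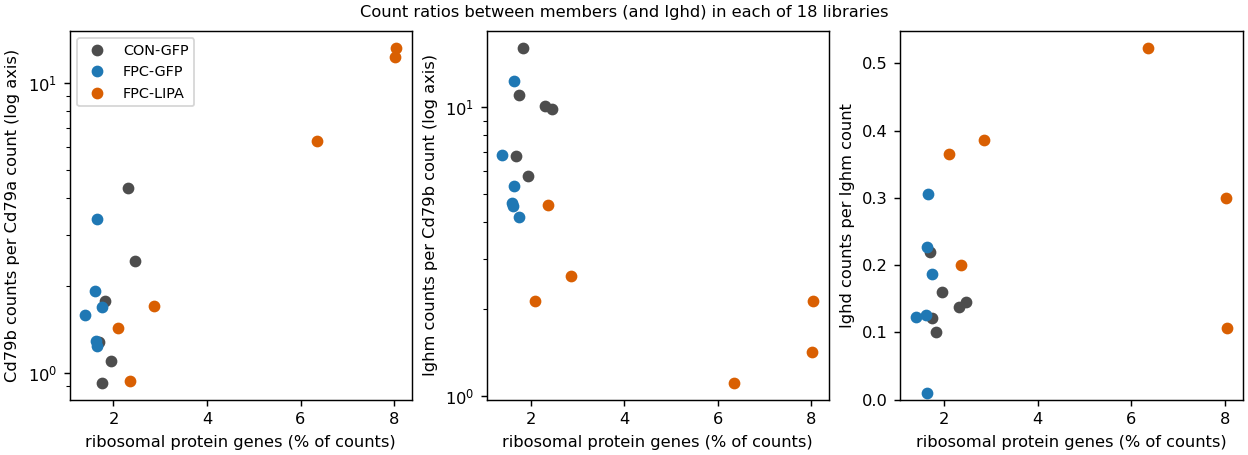
Ratios of counts in each of the 18 libraries (y axis) against the percentage of counts on cytosolic ribosomal protein genes (x axis), coloured by group, with log axes for the first 2 ratios. The 3 libraries at the right, FPC-LIPA 36, 37 and 39, have 6.29, 12.25 and 13.2 Cd79b counts per Cd79a count, and all 6 FPC-LIPA libraries lie below every CON-GFP library in Ighm counts per Cd79b count.

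Blnk, the adaptor, moved little. It lay between 0.588 and 1.99 CPM in CON-GFP (median 1.39), between 0.810 and 2.27 in FPC-GFP (median 1.67) and between 0.821 and 4.12 in FPC-LIPA (median 2.23). FPC-LIPA 33 was the highest library and FPC-LIPA 36 was close to the bottom of the FPC-GFP range. The log2 fold change was 0.37 (SE 0.32, adjusted p = 0.410) for the diet, 0.48 (SE 0.35, adjusted p = 0.307) in FPC-LIPA against FPC-GFP and 0.84 (SE 0.40, adjusted p = 0.134) against CON-GFP. Without FPC-LIPA 36, 37 and 39 the last value was 1.27 (adjusted p = 0.0350), so that Blnk was DE there.

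Ms4a1, the mature B cell surface gene, gave the largest fold change of the members in FPC-LIPA. CON-GFP libraries held 3 to 24 counts (0.122 to 0.946 CPM, median 0.291), FPC-GFP libraries 6 to 35 counts (0.243 to 1.05 CPM, median 0.412) and FPC-LIPA libraries 27 to 225 counts (0.851 to 6.85 CPM, median 1.61). FPC-LIPA 36 and 37 were highest at 6.85 and 3.41 CPM, and FPC-GFP 19 was the only FPC-GFP library to reach into the FPC-LIPA range. The log2 fold change was 2.32 (SE 0.54, adjusted p = 0.0173) against FPC-GFP and 2.75 (SE 0.60, adjusted p = 0.00503) against CON-GFP, and Ms4a1 stayed DE in all 12 runs of each comparison that left out 1 library. Without FPC-LIPA 36, 37 and 39 it fell to 1.12 (adjusted p = 0.208) and 1.60 (adjusted p = 0.0548).

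Mzb1, which serves antibody secretion, was at the limit of detection in every group. It had 0 to 8 counts per CON-GFP library, 0 to 6 per FPC-GFP library and 0 to 5 per FPC-LIPA library, or 19, 14 and 12 counts in all. The gene was below the filter in each comparison, so no fold change is given, and a difference was not detectable at this depth. Reads on the exon bases shared with Gm50318 may also be missing from these counts.

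Ly9 rose both with the diet and with LIPA. It lay between 0.838 and 1.72 CPM in CON-GFP (median 1.27), between 1.50 and 4.86 in FPC-GFP (median 2.57) and between 4.20 and 11.4 in FPC-LIPA (median 5.83). Only FPC-GFP 11 was within the CON-GFP range, and only FPC-LIPA 39 was within the FPC-GFP range, below FPC-GFP 19. The log2 fold change was 1.12 (SE 0.27, adjusted p = 0.00975) for the diet, 1.20 (SE 0.30, adjusted p = 0.0195) in FPC-LIPA against FPC-GFP and 2.30 (SE 0.27, adjusted p = 7.21e-05) against CON-GFP. Without FPC-GFP 19 the diet value was 0.91 (adjusted p = 0.0263), and without FPC-LIPA 37 the value against FPC-GFP was 0.98 (adjusted p = 0.0415), each just under 2-fold. Ly9 lies within the gene Cd244a on the opposite strand, but their exons share 0 bases.

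**Figure D3:**
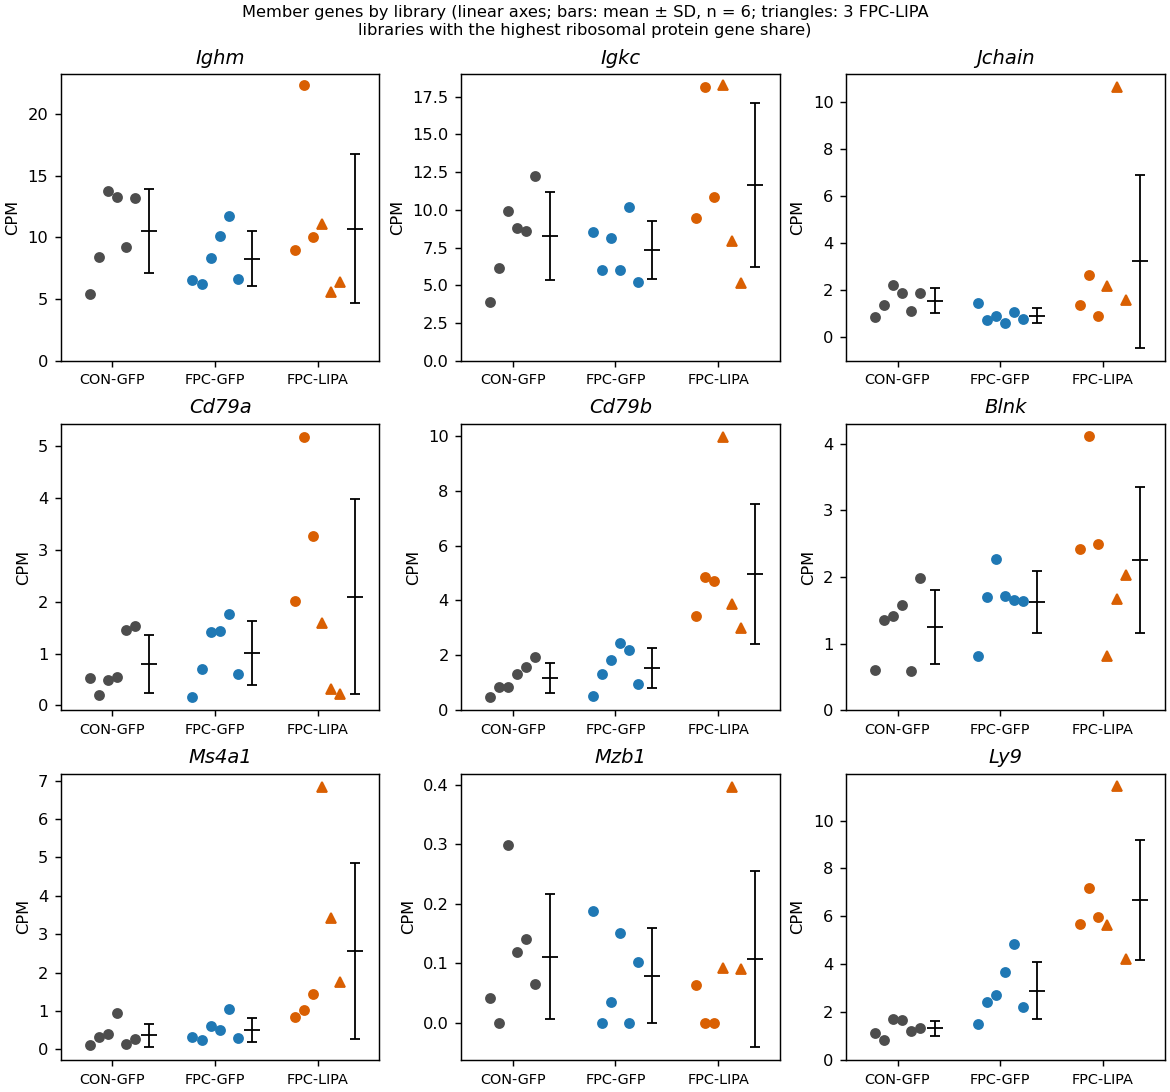
CPM of each member (y axes, linear, each with its own scale) in the 6 libraries of each group, with the mean and SD of the group beside the points. Triangles are FPC-LIPA 36, 37 and 39; Cd79b is higher in every FPC-LIPA library than in any other, Jchain has a single high value of 10.6 CPM, and Cd79a is lowest in FPC-LIPA in 2 of the triangles.

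Set against Ptprc, the common leukocyte gene, Ighm and Jchain were lower in every FPC-LIPA library than in any CON-GFP library, whereas the other members overlapped. Ptprc itself had medians of 5.76, 8.31 and 20.1 CPM in CON-GFP, FPC-GFP and FPC-LIPA. Per 100 Ptprc counts, Ighm had a median of 151 counts in CON-GFP (113 to 308), 99.5 in FPC-GFP (61.1 to 123) and 49.9 in FPC-LIPA (7.26 to 111), so that the lowest CON-GFP library was just above the highest FPC-LIPA library. Jchain had medians of 20.6 (18.1 to 50.0), 8.67 (7.12 to 24.2) and 10.9 (4.08 to 13.9) in the same order, and the gap between CON-GFP and FPC-LIPA was wider. Cd79b had medians of 16.3, 15.1 and 21.4 per 100 Ptprc counts, Ly9 of 22.0, 31.3 and 28.6, and the ranges of both overlapped between all groups. Ighm counts per Cd79b count had a median of 9.98 in CON-GFP (5.79 to 16.0), 5.01 in FPC-GFP (4.16 to 12.3) and 2.14 in FPC-LIPA (1.11 to 4.59), and again FPC-LIPA lay wholly below CON-GFP. These ratios are given as descriptions, without a test.

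The make-up of the immunoglobulin transcripts was taken from shares within a library, which do not depend on scaling. IgM took 69.3% ± 6.17 (SD, n = 6) of the heavy chain constant counts in CON-GFP, 61.7% ± 8.44 in FPC-GFP and 64.7% ± 6.67 in FPC-LIPA. IgD, which is made by mature B cells that have not switched class, took 10.1% ± 2.52 in CON-GFP, 10.3% ± 6.47 in FPC-GFP and 19.4% ± 7.54 in FPC-LIPA. IgA took 10.1% ± 5.14, 17.8% ± 11.8 and 9.29% ± 2.46 in the same order, and IgG took 10.3%, 10.2% and 6.41%. Of 27 exact permutation tests over isotypes, lambda share and summed V segments, 0 passed an adjusted p of 0.05 and 3 had an unadjusted p under it.

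The IgD share of FPC-LIPA exceeded that of FPC-GFP by 9.13 percentage points (exact two-sided permutation p = 0.0455, adjusted p = 0.387) and that of CON-GFP by 9.31 points (exact p = 0.0195, adjusted p = 0.263), where the smallest p that 6 against 6 mice allow is 0.00216. Its share ran from 7.94% in FPC-LIPA 39 (15 of 189 counts, exact 95% binomial interval 4.51% to 12.8%) to 29.2% in FPC-LIPA 36 (190 of 651, 25.7% to 32.8%), and 4 of the 6 FPC-LIPA libraries were above every CON-GFP and FPC-GFP library. Such intervals cover counting error only. The gene Ighd stood at 1.13 on the log2 scale (SE 0.61, adjusted p = 0.176) against FPC-GFP and did not pass the test.

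Lambda chains took 16.8% ± 4.38 of the light chain constant counts in CON-GFP, 13.1% ± 5.67 in FPC-GFP and 21.2% ± 4.23 in FPC-LIPA. The difference between FPC-LIPA and FPC-GFP was 8.13 percentage points (exact permutation p = 0.0152, adjusted p = 0.263). The 3 highest FPC-LIPA shares, 22.3%, 25.4% and 26.5%, were those of FPC-LIPA 36, 37 and 39, the libraries rich in ribosomal protein counts, and the part of this in the difference was not tested. Of the lambda constant genes, Iglc3 rose by 2.12 on the log2 scale (SE 0.58, adjusted p = 0.0251) and Iglc2 by 1.47 (SE 0.50, adjusted p = 0.0484) in FPC-LIPA against FPC-GFP, while Iglc1 stood at 0.96 (adjusted p = 0.108). These genes are near-identical copies of low count, and they were singled out after their values were seen. Iglc3 was not DE without FPC-GFP 12, 13 or 20 or FPC-LIPA 36 (log2 fold changes from 1.61 to 2.16), and Iglc2 kept the call only without FPC-GFP 12, FPC-LIPA 31 or FPC-LIPA 33 (1.27 to 1.84 over all 12 runs). With the length trend removed they stood at 1.34 and 0.92, and neither was DE.

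FPC-GFP 11 held the lowest shares of IgD and lambda and the highest share of IgA of all 18 libraries. IgD was 0.505% of its heavy chain counts (2 of 396, exact 95% interval 0.0612% to 1.81%), IgA was 36.6% (145 of 396, 31.9% to 41.6%) and lambda was 2.85% of its light chain counts (8 of 281, 1.24% to 5.53%). No other library was below 7.30% for IgD or below 11.6% for lambda, and none was above 23.3% for IgA. The same library held only 5 counts of Cd79a and 17 of Cd79b, with 12.3 Ighm counts per Cd79b count. Without it the lambda difference between FPC-LIPA and FPC-GFP was 6.08 percentage points and the IgD difference was 7.17.

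**Figure D4:**
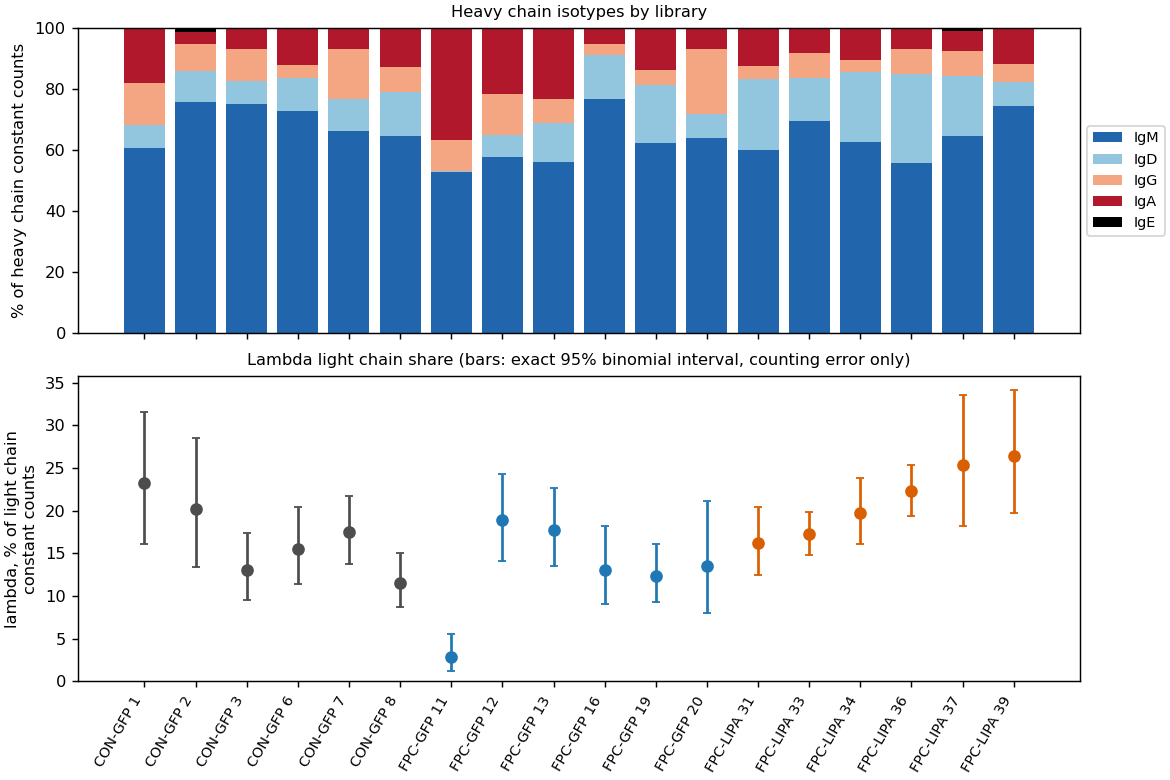
Upper panel, percentage of heavy chain constant counts (y axis) per isotype in each library. Lower panel, lambda percentage of light chain constant counts with exact 95% binomial intervals, coloured by group; FPC-GFP 11 has the largest IgA share, 36.6%, and the lowest lambda share, 2.85%.

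Variable segments were summed because single segments held few reads. Of the 185 Ighv genes listed, 75 had a count, and of the 160 Igkv genes, 76 had one, with 2 to 71 summed counts per library for Ighv and 26 to 185 for Igkv. Summed Ighv segments averaged 0.36 ± 0.37 log2 CPM in CON-GFP, -0.08 ± 0.66 in FPC-GFP and -0.55 ± 1.16 in FPC-LIPA (SD, n = 6, pseudocount of 0.5 counts), and FPC-LIPA differed from FPC-GFP by -0.48 (exact permutation p = 0.398, adjusted p = 0.717). Summed Igkv segments differed by 0.31 between the same groups (exact permutation p = 0.307, adjusted p = 0.593).

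Pigr, the receptor that carries polymeric IgA and IgM into bile, fell with the FPC diet and did so in every library. It averaged 844 ± 170 CPM (SD, n = 6) in CON-GFP, 299.7 ± 95.2 in FPC-GFP and 257 ± 98.6 in FPC-LIPA. No FPC library overlapped the CON-GFP range of 612 to 1024 CPM. The log2 fold change was -1.50 (SE 0.20, adjusted p = 0.000317) for the diet and -1.74 (SE 0.26, adjusted p = 0.000457) in FPC-LIPA against CON-GFP, but -0.22 (SE 0.27, adjusted p = 0.558) in FPC-LIPA against FPC-GFP. In the list of 15 genes that joins the immunoglobulin constant genes with Jchain and Pigr, Pigr was the only gene DE with the diet (1 of 11 tested, median -0.18). Jchain, Iglc2 and Iglc3 were the 3 of 10 that were DE in FPC-LIPA against FPC-GFP (median 0.81), and against CON-GFP Iglc1 rose and Pigr fell (median 0.62).

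Around the receptor, Cd22, Cd72 and Fcrla were DE beside Cd79b and Ms4a1 in FPC-LIPA. For this and the following lists, 7.20% of all tested genes were DE with the diet, 11.4% in FPC-LIPA against FPC-GFP and 15.1% against CON-GFP. In each list the filter can pass a gene through its FPC-LIPA libraries alone. The list of the B cell receptor complex and its coreceptors holds 14 genes, 3 of which are members. Of these, 0 of 11 tested were DE in FPC-GFP against CON-GFP (edgeR), with 1 unadjusted p under 0.05, that of Cd72, which passed the adjusted p below 2-fold at 0.55 (adjusted p = 0.0499). In FPC-LIPA against FPC-GFP, 5 of 12 were DE, all upward, all 12 were above 0 and the median was 1.05, and against CON-GFP 6 of 12 were DE. Besides Ms4a1 and Cd79b these were Cd22, an inhibitory receptor, at 1.13 (SE 0.35, adjusted p = 0.0370), Cd72, another inhibitory receptor, at 1.03 (SE 0.25, adjusted p = 0.0183), and Fcrla, at 1.32 (SE 0.35, adjusted p = 0.0233), which was named after its values were seen. Cd22 was no longer DE once FPC-GFP 11, 12, 13 or 20 was left out, or any of FPC-LIPA 33, 36, 37 and 39 (0.93 to 1.38 over all 12 runs). Cd72 was not DE without FPC-GFP 11, 13 or 20 or FPC-LIPA 33 (0.81 to 1.16), and Fcrla was not without FPC-GFP 12 or 13 or FPC-LIPA 36 (1.11 to 1.52). Against CON-GFP, Cd22 at 1.87 and Cd72 at 1.57 stayed DE in all 12. Pax5, which sets B cell identity, stood at 1.11 (adjusted p = 0.154) in FPC-LIPA against FPC-GFP. The most abundant genes of the list, Cd81 at 279 CPM and Fcgr2b at 54.8 CPM over all libraries, are also made by other liver cells.

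Of the signalling genes behind the receptor, Plcg2, Btk and Syk rose with the diet. Of 17 genes, 3 of 16 tested were DE in FPC-GFP against CON-GFP, with Plcg2, the phospholipase, at 1.20 (SE 0.30, adjusted p = 0.0110), Btk, a kinase, at 1.12 (SE 0.30, adjusted p = 0.0164) and Syk at 1.02 (SE 0.21, adjusted p = 0.00343). Syk fell just under 2-fold without CON-GFP 1 or 2 or FPC-GFP 12 or 19 (0.89 to 0.98). Other genes rose with the diet and passed the adjusted p below 2-fold. They were Vav1 at 0.87 (adjusted p = 0.00760), Inpp5d at 0.76 (0.00790), Ptpn6 at 0.51 (0.00661), Fyn at 0.47 (0.0300) and Lyn at 0.25 (0.0464). The groups of Vav1, Inpp5d, Ptpn6 and Lyn did not overlap, as for 6.19% of all genes in the upward direction. Ptpn6 and Fyn were named after their values were seen. Between FPC-LIPA and FPC-GFP 0 of 16 were DE with edgeR, although 4 had an unadjusted p under 0.05. Of these, Prkcb at 0.95 (adjusted p = 0.0435) and Pik3ap1 at -0.68 (adjusted p = 0.0484, groups not overlapping) passed the adjusted p below 2-fold, and Prkcb was DE at 1.06 without FPC-LIPA 31. Syk stood at 0.63 and Btk at 0.68 (adjusted p = 0.0635) there. Against CON-GFP, 6 of 17 were DE, and besides Syk and Btk these were Prkcb at 1.44, Bank1 at 1.13, Inpp5d at 1.10 and Vav1 at 1.10. Bank1 kept the call only without CON-GFP 6 or FPC-LIPA 33 or 37 (0.92 to 1.34 over all 12 runs). Inpp5d and Vav1 lost it without CON-GFP 1, 2, 3 or 6 or FPC-LIPA 33 or 34, and Vav1 also without CON-GFP 7 (0.77 to 1.27). Pik3ap1 and Lyn, at 52.4 and 27.1 CPM, were the most abundant of this list, and myeloid cells share most of its genes.

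Among transcription factors of the B lineage, Pou2f2 and Spi1 rose with the diet. In FPC-GFP against CON-GFP, 2 of 8 tested of the 12 genes were DE, Pou2f2 at 1.92 (SE 0.33, adjusted p = 0.00134) and Spi1, a factor of both myeloid and B cells, at 1.42 (SE 0.22, adjusted p = 0.000732). Ikzf1 at 0.97 (adjusted p = 0.0140) passed the adjusted p there just below 2-fold. Between FPC-LIPA and FPC-GFP, 0 of 10 were DE with edgeR, and 3 had an unadjusted p under 0.05. Foxo1 at -0.64 (adjusted p = 0.0261, groups not overlapping) passed the adjusted p below 2-fold, and Spi1 stood at 0.61. Against CON-GFP 4 of 10 were DE, with Ikzf1 at 1.62 and Foxo1 at -1.19 beside Spi1 and Pou2f2, and Foxo1 was just under 2-fold at -0.99 without CON-GFP 1. Foxo1 and Tcf3 were the most abundant of the list, at 29.9 and 14.3 CPM.

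Of the plasma cell genes, Jchain and Prdm1 were DE in FPC-LIPA against FPC-GFP. Of the 14 genes of the plasma cell list, 0 of 11 tested were DE with the diet (edgeR, 4 with an unadjusted p under 0.05), of which Txndc5 at 0.37 (adjusted p = 0.0247) and Cd38, named after its values were seen, at 0.42 (adjusted p = 0.0292) passed the adjusted p below 2-fold. In the FPC-LIPA comparison with FPC-GFP 2 of 12 were DE, where 11.4% of all genes were. Of the 12, 7 were above 0 (52.3% of all genes were), with a median of 0.26. Derl3 at -1.13 (SE 0.53, adjusted p = 0.121) and Pim2 at -0.71 (SE 0.29, adjusted p = 0.0814) were below 0 and did not pass the test. Both were named after their values were seen. Prdm1, the plasma cell regulator that T cells and macrophages also express, stood at 1.21 (SE 0.34, adjusted p = 0.0264), was named after its values were seen and was not DE without FPC-GFP 11, 12, 13 or 20 or FPC-LIPA 37 (0.97 to 1.24). Against CON-GFP, 5 of 11 were above 0 (52.4% of all genes were), with a median of -0.12. Of these 11, 2 were DE where 15.1% of all genes were, namely Prdm1 and Fkbp11. Fkbp11 was at 1.19 (adjusted p = 0.0306), and at 0.24 without FPC-LIPA 36, 37 and 39. It was not DE without any 1 of these 3, or without CON-GFP 1, 2, 6 or 8 (1.01 to 1.37 over all 12 runs). The most abundant genes of the list, Xbp1 at 188 CPM and Txndc5 at 172 CPM, are also used by hepatocytes. In FPC-LIPA against FPC-GFP both passed the adjusted p below 2-fold and downward, Xbp1 at -0.79 (adjusted p = 0.0385) and Txndc5 at -0.66 (adjusted p = 0.0199). Of 6 germinal centre genes, 2 were tested and 0 were DE in each comparison (edgeR), with an unadjusted p under 0.05 for 1 gene, S1pr2, with the diet and for 0 in both FPC-LIPA comparisons. Rgs13 had at most 3 counts in every library, and Bcl6 and S1pr2 were the most abundant at 18.5 and 8.79 CPM.

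Receptors and chemokines that guide and sustain B cells were called in FPC-LIPA. Of 16 genes, 0 of 8 tested were DE with the diet (edgeR, 1 with an unadjusted p under 0.05). In FPC-LIPA against FPC-GFP 5 of 10 were DE, where 11.4% of all genes were, with a median of 1.18. Against CON-GFP 4 of 10 were DE, where 15.1% of all genes were. Cd40, the receptor for T cell help that macrophages also carry, rose from 0.872 ± 0.250 CPM in FPC-GFP to 3.19 ± 1.47 in FPC-LIPA (SD, n = 6), a difference of 1.86 on the log2 scale (SE 0.35, adjusted p = 0.0110), and its groups did not overlap. Cxcr4 was at 1.24 (SE 0.29, adjusted p = 0.0167), and both stayed DE in all 12 runs that left out 1 library. Tnfrsf13c, which encodes the receptor of the survival factor BAFF, stood at 2.22 (SE 0.61, adjusted p = 0.0257), Cxcr5, which guides B cells into follicles, at 1.71 (SE 0.47, adjusted p = 0.0256) and Ccr7 at 1.41 (SE 0.45, adjusted p = 0.0400). Tnfrsf13c and Cxcr5 were not tested for the diet, so the filter may have passed them through their FPC-LIPA libraries alone. Tnfrsf13c, Cxcr5 and Ccr7 were named after their values were seen and averaged under 1 CPM over the 18 libraries. Each lost the call without FPC-GFP 12, 13 or 20 or FPC-LIPA 36, Tnfrsf13c and Ccr7 also without FPC-LIPA 39, and Ccr7 without FPC-GFP 11 or 16. Over all 12 runs Tnfrsf13c ran from 1.82 to 2.73, Cxcr5 from 1.47 to 1.98 and Ccr7 from 1.18 to 1.60. Cxcl13, the ligand of CXCR5, stood at 1.00 (adjusted p = 0.198) against FPC-GFP and at 2.11 (SE 0.60, adjusted p = 0.0207) against CON-GFP. Cxcl12, made by stromal cells, was the most abundant of the list at 236 CPM.

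Most tested genes of the SLAM list were DE. This list of 11 genes joins receptors of the SLAM family, Ly9 included, with the adaptor genes Sh2d1a and Sh2d1b1. Of them, 5 of 7 tested were DE with the diet, 6 of 9 in FPC-LIPA against FPC-GFP and 8 of 8 against CON-GFP. The medians were 1.12, 1.19 and 2.28, and all calls were upward. The last 2 counts include Sh2d1b1, at 2.75 (adjusted p = 0.0129) and 3.07 (adjusted p = 0.00521), which was named after its values were seen. It was not tested for the diet, so the filter may have passed it through its FPC-LIPA libraries alone. Cd48 stood at 1.22 (SE 0.25, adjusted p = 0.00350) for the diet and 1.13 (SE 0.23, adjusted p = 0.0126) in FPC-LIPA against FPC-GFP, where it was 0.99 without FPC-LIPA 36. Cd84 at 1.70 (SE 0.27, adjusted p = 0.00842) and Slamf9 at 1.91 (SE 0.34, adjusted p = 0.0103) were DE in FPC-LIPA against FPC-GFP and not with the diet (0.39 and 0.62), whereas Slamf8 was DE with the diet at 1.62 (SE 0.42, adjusted p = 0.0136) and stood at 0.48 against FPC-GFP. Whether these effects differ between the comparisons was not tested. Myeloid cells express most of this family, Cd48, Cd84, Slamf8 and Slamf9 included.

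Of 10 genes of MHC class II presentation, which B cells share with macrophages and dendritic cells, 3 were DE with the diet, 1 in FPC-LIPA against FPC-GFP and 8 against CON-GFP. These were Cd74, H2-Ab1 and H2-DMa with the diet, and in FPC-LIPA against CON-GFP these 3 with H2-Aa, H2-Eb1, H2-DMb1, H2-Ob and Ciita. Cd74, the invariant chain, was at 1.32 (SE 0.25, adjusted p = 0.00214) for the diet. H2-Aa at 0.94 (adjusted p = 0.0198), H2-Eb1 at 0.90 (0.0225) and H2-DMb1 at 0.68 (0.0225) passed the adjusted p for the diet below 2-fold. In FPC-LIPA against FPC-GFP, H2-Aa stood at 0.69 (adjusted p = 0.0651). H2-Eb1 at 0.90 (adjusted p = 0.0239), H2-DMb1 at 0.73 (0.0328) and H2-Ab1 at 0.69 (0.0484) passed the adjusted p there below 2-fold. H2-Ob was the only gene DE there, at 1.13 (adjusted p = 0.0480). It was named after its values were seen and kept the call only without FPC-GFP 19 or FPC-LIPA 37 (0.94 to 1.35 over all 12 runs).

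**Figure D5:**
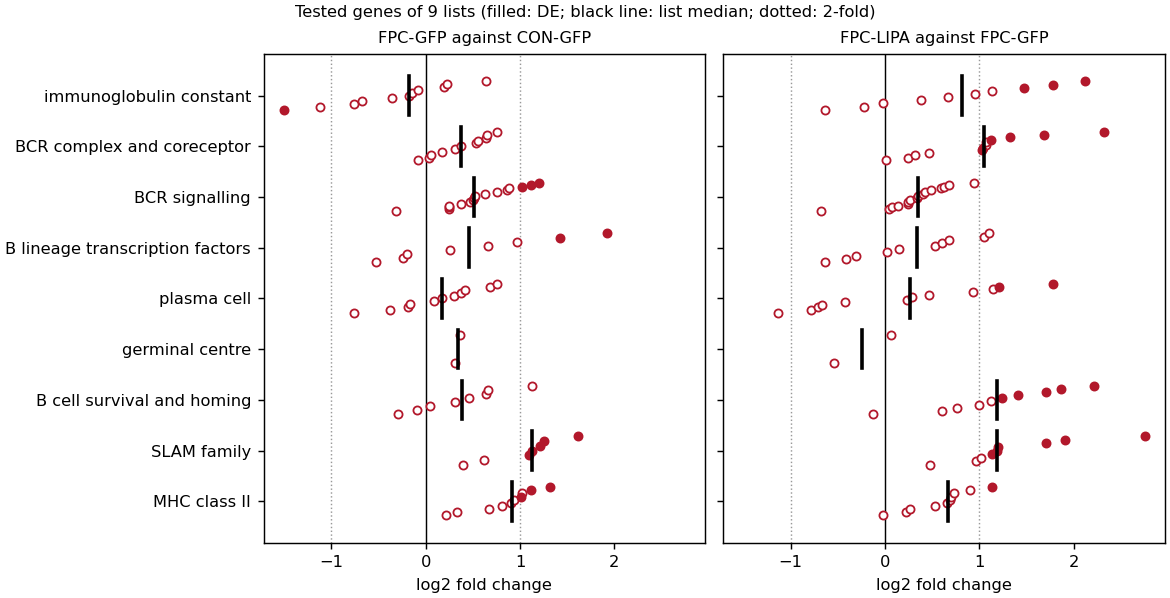
Log2 fold change (x axis) of each tested gene of 9 lists (rows), with filled points for DE genes and a black line at the list median. In FPC-GFP against CON-GFP the filled points lie mostly among SLAM, MHC class II and signalling genes, and in FPC-LIPA against FPC-GFP among receptor complex, homing and SLAM genes.

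Markers of other leukocytes moved with the same comparisons, and their part in the values of the members was not tested. Kupffer cell markers were DE in 8 of 8 for the diet and 1 of 8 in FPC-LIPA against FPC-GFP, with summed levels of 134 to 272 CPM in CON-GFP, 378 to 632 in FPC-GFP and 511 to 997 in FPC-LIPA. Cd5l and Clec4f were the most abundant of them. In FPC-LIPA against FPC-GFP all 8 were above 0 (52.3% of all genes were), with a median of 0.79. Cd5l at 0.92 (adjusted p = 0.0235), Folr2 at 0.63 (0.0387) and Clec4f at 0.49 (0.0418) passed the adjusted p there below 2-fold. Folr2 was named after its values were seen. Monocyte and macrophage markers, led by Lyz2 and Spp1, were DE in 6 and 5 of 10, with summed levels of 87.0 to 160, 195 to 483 and 578 to 974 CPM. T cell markers, led by Trbc2 and Trbc1, were DE upward in 0 and 3 of the 8 and 9 tested genes (edgeR, 2 upward with an unadjusted p under 0.05 for the diet, when Cd4 fell), summing to 5.12 to 8.31, 4.17 to 8.71 and 8.10 to 20.9 CPM. Neutrophil markers, led by Csf3r and S100a9, were DE in 0 of 3 (1 with an unadjusted p under 0.05) and 3 of 4, with Ly6g at 3 counts or fewer in every CON-GFP and FPC-LIPA library, and the summed level was 1.87 to 4.81, 2.71 to 5.97 and 8.38 to 21.2 CPM. Plasmacytoid dendritic cell markers, led by Bst2 and Tcf4, had a summed level of 159 to 309 CPM. Of them only Siglech was DE in FPC-LIPA against FPC-GFP, at 2.42 (SE 0.56, adjusted p = 0.0163), and it was named for this. Tcf4 at 0.94 (adjusted p = 0.0322) passed the adjusted p there below 2-fold. Its groups did not overlap, as for 3.81% of all genes in the upward direction. Against CON-GFP Siglech was not DE at 1.32 (adjusted p = 0.0686). Irf8, also named after its values were seen, was DE in that comparison at 1.11 (adjusted p = 0.00577). Of 7 NK cell markers, led by Gzma and Klrb1c, Gzma alone was tested and was DE there, with summed levels of at most 6.27 CPM. Siglech and Gzma were not tested for the diet, so the filter may have passed them through their FPC-LIPA libraries alone. Hepatocyte markers had medians of -0.24 and -0.19 in these comparisons, with 1 of 6 DE downward in each. In FPC-LIPA against CON-GFP the DE counts were 8 of 8 Kupffer cell, 9 of 10 monocyte and macrophage, 4 upward and 1 downward of 10 T cell, 2 of 4 neutrophil, 1 of 4 plasmacytoid dendritic cell, 1 of 1 NK cell and 1 of 6 hepatocyte markers.

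The genes whose log2 CPM followed the mean standardised level of the members most closely over the 18 libraries, among 14061 genes, were not all lymphocyte genes. Septin4 had the highest likeness, with Pearson r of 0.866 and Spearman rho of 0.827, followed by Cd22 (r 0.863, rho 0.853). Lilr4b, Chst2, Aif1, Colec11, Ccdc3, Ms4a7 and Ccdc148 had r from 0.842 to 0.857. Without CON-GFP 1 and FPC-LIPA 33, the libraries farthest from the median of the member score, r was 0.838 for Septin4 and 0.786 for Cd22. The 18 points share the group structure and the scaling of the libraries, and no test is attached to these values.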

How the data were processed

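The authors trimmed paired liver reads with Trimmomatic, aligned them to GRCm38 by HISAT2 2.1.0 and obtained gene counts from featureCounts of Subread, and the deposited table holds these raw counts, with no normalization. The strand setting, the annotation version and how reads with several matches were counted are not given in the sources used here. The labels name both a stranded and an unstranded kit, so opposite-strand genes cannot be separated with certainty. Another 5 columns of the table were not used here.

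Members were matched by symbol, and groups came from the sample labels. In each comparison its 12 libraries were fitted alone in edgeR 4.0.16 (R 4.3.3, with limma 3.58.1), after filterByExpr and TMM scaling, with the quasi-likelihood test and Benjamini-Hochberg adjustment over all tested genes. A gene was DE where it differed at least 2-fold at an adjusted p under 0.05. CPM was scaled by TMM over 18 libraries, log2 CPM used a prior count of 2, and errors on log2 fold changes are standard errors. Isotype, lambda and V segment values were compared by exact two-sided permutation tests with Benjamini-Hochberg adjustment over 27. Exon lengths and positions came from GENCODE M21. The labels do not state more than 1 mouse per sample, and depth ranged from 16632146 to 37739301 counts. A gene with 3 counts or fewer in a library was taken as at the floor.

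The text names all members, the 2 genes of highest mean CPM of each gene list, every B lineage gene DE in a comparison whose mean reached 1 CPM, and the 10 genes most like the members. Genes outside that rule are said to be so where named, and a few results are not reported here. The members, lists and rule were chosen with earlier results of these data known.

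Alternatives were DESeq2 1.42.0 size factors, upper-quartile factors or library size in place of TMM, the DESeq2 Wald test, edgeR's exact test, either no filter or a minimum of 1 CPM in 6 libraries, a joint fit of all 18 libraries, restriction to sample sheet numbers from 55 to 68, removal of each library's length trend (spline with 5 degrees of freedom), no minimum fold change, and each library left out. Leaving out FPC-LIPA 36, 37 and 39 together was added after seeing the data. In a simulation that changed 200 genes by 4-fold, the test recovered 194 for the diet comparison (14156 genes, 5 unchanged genes called) and 193 for FPC-LIPA against FPC-GFP (14495 genes, 6 called). Every gene and group was given the same dispersion there. The recovery therefore does not show how the test performs at the spread of the real FPC-LIPA libraries. Tables and figures were made with matplotlib 3.10.9, numpy 2.4.6 and pandas 2.3.3 under Python 3.11.15.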

Additional observations from a re-analysis of the deposited data

Results flagged for a closer look

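In 5 of the 27 groups of member values (9 members in 3 groups of 6 libraries), 1 library lay further from the rest than Dixon's 95% critical value allows. Chance gives this in about 1 in 20 groups of normally distributed values. The values here were CPM, many of low count, and each flagged value was a high one. That rate may therefore not hold here, and 5 of 27 is not read as an excess. The libraries were FPC-LIPA 33 for Ighm at 22.3 CPM, FPC-LIPA 37 for Jchain at 10.6 CPM and for Mzb1 at 0.397 CPM (5 counts), FPC-LIPA 36 for Cd79b at 9.95 CPM, and CON-GFP 6 for Ms4a1 at 0.946 CPM (24 counts). Without FPC-LIPA 36, Cd79b was still DE at 1.35 on the log2 scale against FPC-GFP, and without FPC-LIPA 37 Jchain was no longer DE. FPC-LIPA 36 and 37 are among the 3 libraries with the highest share of ribosomal protein counts, and the part of that share in these values was not tested.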

How the results depend on the processing

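The count of DE members moved most in FPC-LIPA against FPC-GFP. For the diet the count was 1 and became 0 without FPC-GFP 19 (range 0 to 1 with each library left out). In FPC-LIPA against FPC-GFP it was 4, became 0 with sheet numbers 55 to 68 and 0 without FPC-LIPA 36, 37 and 39, and was 3 with library size alone (Jchain 1.49, adjusted p = 0.0552). With each library left out it was 2 to 4, with 2 without FPC-LIPA 37 and 3 without FPC-LIPA 36 or FPC-GFP 12, 13, 16, 19 or 20. Against CON-GFP it was 3 and lay between 2 and 4 under all alternatives. The count of immunoglobulin shares and sums that passed was 0 throughout. Sheet numbers 55 to 68 leave fewer libraries, and 96 genes were DE there in FPC-LIPA against FPC-GFP against 1671 with all, 116 were DE without the 3 libraries, and against CON-GFP 1107 were DE with sheet numbers 55 to 68 in place of 2176. Beyond this the cause of these changes was not tested.

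Directions turned only for values that were not DE. Igkc for the diet was 0.0092 with library size alone and 0.084 with the length trend removed. Ighm against CON-GFP was -0.00096 with DESeq2 size factors, -0.0028 in the DESeq2 Wald test, -0.022 with no filter, -0.082 with sheet numbers 55 to 68 and -0.14 with the length trend removed, and ran from -0.36 to 0.13 with each library left out. Jchain against CON-GFP was -0.036 with sheet numbers 55 to 68. Iglc1 for the diet ran from -0.16 to 0.38 with each library left out, and Pigr in FPC-LIPA against FPC-GFP was 0.10 without FPC-LIPA 36, 37 and 39. Scaling by library size alone moved the median of all genes from 0.01 to 0.21 for the diet, where 1054 genes were then DE upward and 225 downward in place of 681 and 349. In FPC-LIPA against FPC-GFP it moved that median from 0.04 to -0.09 and left 1016 DE genes, and leaving out 1 library there gave 856 to 2612.

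No paired analysis was possible because mouse numbers are not shared between the groups. Low counts limit Mzb1, Ms4a1 outside FPC-LIPA, Cd79a in FPC-LIPA 37 and 39, and single V segments.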
